A study of Homo sapiens with 6 samples.

Results

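The genes described here are KRT81 and 8 other genes of intermediate filament proteins, 9 of the 57773 genes in the count table. They are the keratin genes KRT81, KRT86, KRT80, KRT7, KRT8, KRT18 and KRT19, the vimentin gene VIM and the nestin gene NES. The genes were selected with their measured values in the comparison of Apatinib with control in view, so their values are given as a description, with no test. Each symbol matched 1 row of the table.

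RNA was sequenced from SW872, an established human liposarcoma cell line, that is, a line from a malignant tumor of fat lineage. The Apatinib group held 3 biological replicates exposed to 18 μM Apatinib, an inhibitor of the kinase of VEGF receptor 2, for 24 h. The control group held 3 replicates without Apatinib, and whether they received the drug's vehicle is not known here. Both groups grew in RPMI-1640 medium with 10% FBS. Listed values follow the replicate numbers. The Apatinib libraries held 18081919, 17275850 and 17352210 counts, and the control libraries 17043314, 18139437 and 22067558.

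Control replicates 1 and 2 were the most alike of the pairs within a group. Their counts differed by a mean chi-square of 2.27 per gene, which is more than sampling noise alone gives, while the other pairs within a group lay between 18.2 and 44.5. They were kept as 2 samples. Whether they shared a culture or a library is not known here, and if they did, the SD of the control group and the FDR values would be too small. With all 6 samples, 1866 of 16290 genes tested were differentially expressed genes (DEGs), at a false discovery rate (FDR) under 0.05 by edgeR's quasi-likelihood test and a log2(FoldChange) over 0.5 in size. This number was 275 without control replicate 1, 300 without control replicate 2 and 795 without Apatinib replicate 1.

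Intermediate filaments are ropes of coiled-coil proteins that give a cell its mechanical strength. Keratins are their epithelial form and are built as obligate pairs of a type I (acidic) and a type II (basic) chain, whereas vimentin forms filaments by itself and is the usual intermediate filament of mesenchymal cells and their tumors. Hair keratins are a cysteine-rich branch of the keratin family best known from the hair shaft, and simple epithelia are marked by KRT8 and KRT18.

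The liposarcoma label of the line, a tumor of mesenchymal origin, was checked against marker genes. Of 12 mesenchymal markers, 11 passed the count filter. Levels are given as CPM, that is, counts scaled to the depth of the sample. The 12 markers summed to 7933, 7847 and 6750 CPM in the Apatinib group, against 5782, 5735 and 6180 CPM in the control group, and the fibronectin gene FN1 was the most abundant. All 12 had counts, with 2 counts over the 6 samples for the proteoglycan gene DCN, and the collagen genes COL3A1 and COL6A3 were DEGs with higher values. The COL3A1 call was lost without control replicate 1 (edgeR FDR = 0.0564), and the COL6A3 call without control replicate 1 (edgeR FDR = 0.0637) or 2 (edgeR FDR = 0.0761). Of 8 adipocyte markers, 3 passed the filter, with PPARG, a regulator of fat cell differentiation, as the most abundant, and ADIPOQ, FABP4 and CEBPA had 0 counts in the 6 samples, although CEBPA had FPKM between 0.0579 and 0.319. The adipocyte markers summed to 65.6, 89.5 and 69.8 CPM in the Apatinib group, against 63, 62 and 61.4 CPM in the control group, and the lipoprotein lipase gene LPL was a DEG with higher values, a call lost without control replicate 1 (edgeR FDR = 0.0784) or 2 (edgeR FDR = 0.0831). Mesenchymal transcripts were thus abundant, and most markers of mature fat cells were at or near 0.

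The selected genes differed from each other in level and in the size of their difference between the groups. KRT81, KRT86, KRT80 and KRT8, all of type II, had the higher values in the Apatinib group and met the DEG rule. KRT18, VIM and NES did not meet it, and KRT7 and KRT19 did not pass the count filter. Thus 7 of the 9 genes passed the filter on low counts and 4 of the 9 met the rule, all 4 in the direction of higher values. Of all genes tested, 11.5% met it, 5.97% with higher and 5.48% with lower values in the Apatinib group. In 5 of the 9 genes the groups did not overlap in CPM, against 33.2% of all genes tested. Because the genes were selected on this contrast, nothing is read from these counts. The measurements come from bulk RNA, in which a different share of cells with a transcript and a different amount of it per cell cannot be told apart.

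KRT81 and KRT86 encode type II hair keratins. KRT81 (ENSG00000205426) measured 76.5, 79.7 and 67.9 CPM in the Apatinib group, against 28.4, 29.9 and 29.4 CPM in the control group. All Apatinib values lay above all control values, and the 3 controls were nearly alike. The means were 74.7 ± 6.11 and 29.2 ± 0.746 CPM (SD, n = 3 each), and the log2(FoldChange) was 1.35 ± 0.122 (SE).

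KRT86 (ENSG00000170442) measured 30.4, 50.6 and 24.9 CPM in the Apatinib group, against 12.7, 12.3 and 10.2 CPM in the control group. The groups did not overlap, and Apatinib replicate 2 stood well above the other 2 treated samples. The means were 35.3 ± 13.5 and 11.7 ± 1.34 CPM (SD, n = 3 each), with a log2(FoldChange) of 1.59 ± 0.236 (SE). Without Apatinib replicate 2 it was 1.24, the lowest of the fits without 1 sample, and without Apatinib replicate 3 it was 1.79, the highest.

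**Figure D1:**
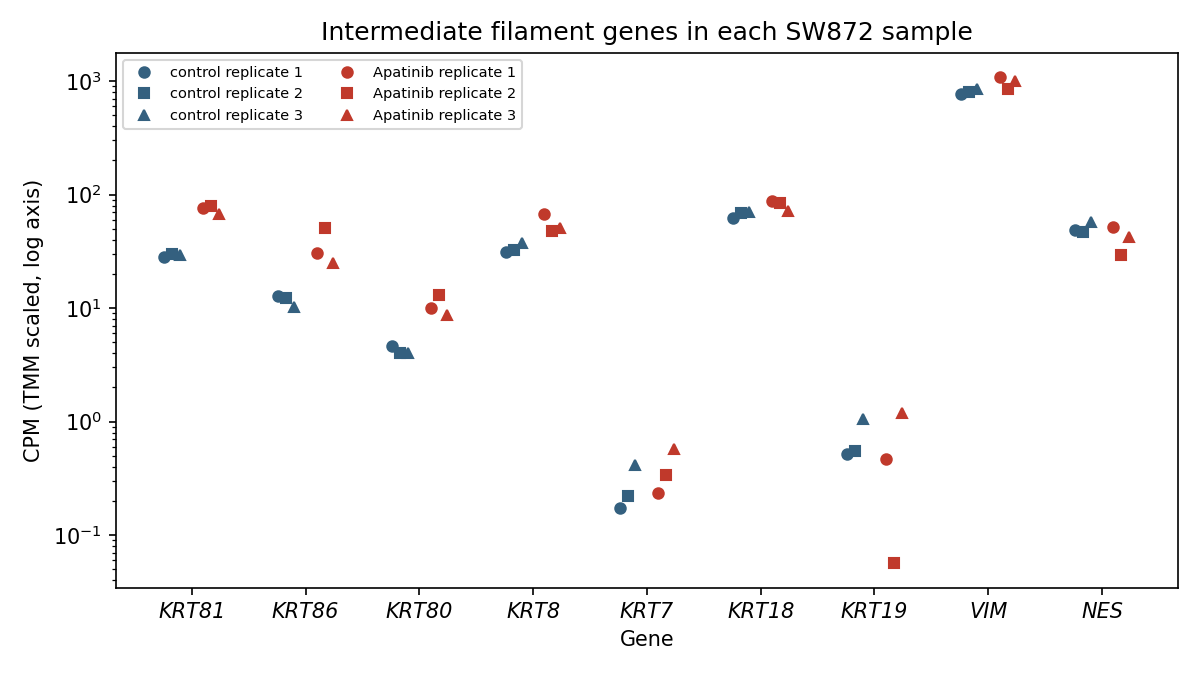
CPM of the 9 intermediate filament genes (log axis) in each sample, with control replicates in blue, Apatinib replicates in red and the marker shape giving the replicate number. KRT81 lies between 67.9 and 79.7 CPM with Apatinib and between 28.4 and 29.9 CPM in the controls, whereas VIM lies near the top of the axis in both groups and KRT7 and KRT19 near the bottom.

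The 2 hair keratin genes are near copies, so that their counts cannot be taken as fully separate. In the GENCODE release 29 transcripts, the coding sequences of KRT81 and KRT86 were identical in 89.6% of aligned positions, and the longest identical run was 605 bases. Of the 75-base windows of the KRT81 transcript, 33.0% occurred in KRT86 transcripts, and 28.6% of the windows of the KRT86 transcript occurred in KRT81. Both genes lie on chromosome 12, KRT81 on the minus strand and KRT86 on the plus strand. The stretch at the end of the identical run, coding bases 626 to 705 of both genes, is shown because only reads over differing bases can tell the genes apart. Capitals mark the bases that differ, 2 of the 80 bases.
KRT81, bases 626 to 705: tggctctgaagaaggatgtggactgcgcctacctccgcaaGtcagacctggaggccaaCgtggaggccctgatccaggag
KRT86, bases 626 to 705: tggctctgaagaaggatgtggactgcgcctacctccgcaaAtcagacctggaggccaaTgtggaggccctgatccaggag

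How reads from the shared run were counted is not given in the sources used here, so the single values of KRT81 and KRT86 are uncertain. Their ratio in counts (KRT81 over KRT86) was 2.51, 1.58 and 2.73 in the Apatinib group, against 2.24, 2.42 and 2.88 in the control group. The ratios of the groups overlapped, and Apatinib replicate 2 had the lowest. With the 2 genes summed into 1 row, a choice made after seeing the data, the level was 107, 130 and 92.8 CPM in the Apatinib group, against 41.1, 42.2 and 39.6 CPM in the control group. The sum did not overlap between the groups either, and its log2(FoldChange) was 1.42 ± 0.142 (SE).

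FPKM, the fragments of a gene scaled to its length and to the depth of the sample, were deposited too and gave a larger ratio for KRT81 than the counts did. KRT81 measured 33, 34.2 and 29.6 FPKM in the Apatinib group, against 11, 11.6 and 10.3 FPKM in the control group. The groups did not overlap on this scale, and the ratio of the means was 2.95, against 2.56 in CPM. For KRT86 the ratios were 3.09 in FPKM and 3.01 in CPM.

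KRT80 (ENSG00000167767) encodes a type II keratin of the epithelial branch. It measured 10.1, 13.1 and 8.64 CPM in the Apatinib group, against 4.62, 4.01 and 4.03 CPM in the control group. Every treated sample was above every control, with Apatinib replicate 2 again the highest. The log2(FoldChange) was 1.33 ± 0.2 (SE), against 0.72 by limma on log2(FPKM + 1) and 1.21 on log2(FPKM + 0.1), and its mean was 0.767 FPKM in the control group. No 75-base window of its transcript occurred in another gene, so its counts do not share the uncertainty of the hair keratins.

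KRT8 and KRT18 form the filament pair of simple epithelia, KRT8 as the type II and KRT18 as the type I chain. KRT8 (ENSG00000170421) measured 67.3, 47.4 and 51.1 CPM in the Apatinib group, against 31, 32.4 and 37.6 CPM in the control group. The groups did not overlap, and Apatinib replicate 1 was the highest sample. The log2(FoldChange) was 0.71 ± 0.155 (SE). It was 0.55 without Apatinib replicate 1, 0.65 without control replicate 1 and 0.68 without control replicate 2, and in these 3 fits KRT8 did not meet the DEG rule. Nor did it with controls 1 and 2 summed, where the value was 0.67.

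KRT18 (ENSG00000111057) measured 87.7, 84.2 and 71.4 CPM in the Apatinib group, against 61.6, 68.7 and 69.9 CPM in the control group. In CPM the groups did not overlap, but Apatinib replicate 3 and control replicate 3 lay close together. In FPKM they overlapped, with 148 in Apatinib replicate 3 and 160 in control replicate 3. The log2(FoldChange) was 0.28 ± 0.126 (SE), under the fold limit of the DEG rule. The ratio of KRT8 to KRT18 in counts was 0.767, 0.562 and 0.716 in the Apatinib group, against 0.503, 0.472 and 0.537 in the control group, so that it was higher in every treated sample.

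The counts of KRT8 and KRT18 are uncertain as well. The 2 genes are neighbours on opposite strands of chromosome 12, and 16.3% of the exon bases of KRT18 and 7.63% of those of KRT8 overlapped the other gene. The use of strand in counting is not given in the sources used here. Parts of the KRT8 and KRT18 transcripts also occurred in 12 and 14 pseudogenes.

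KRT7, a type II keratin of ductal epithelia, had 4, 6 and 10 counts in the Apatinib group, against 3, 4 and 9 counts in the control group. KRT19, the smallest type I keratin, had 8, 1 and 21 counts in the Apatinib group, against 9, 10 and 23 counts in the control group. The groups overlapped in both genes, and replicate 3 had the most counts of its group in each. In the fit without the count filter the log2(FoldChange) was 0.48 for KRT7 and -0.31 for KRT19. KRT7 measured 0.786, 1.27 and 0.543 FPKM in the Apatinib group, against 0.247, 0.252 and 0.752 FPKM in the control group. The groups overlapped on this scale too, and the ratio of the KRT7 means was 2.08 in FPKM and 1.42 in CPM.

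VIM (ENSG00000026025), the filament protein of mesenchymal cells, measured 1081, 857 and 1001 CPM in the Apatinib group, against 776, 801 and 861 CPM in the control group. The groups overlapped, because Apatinib replicate 2 lay just under control replicate 3. The log2(FoldChange) was 0.27 ± 0.127 (SE). Antisense genes overlap VIM, among them VIM-AS1 over 12.4% of the exon bases of VIM, and without knowledge of the strand used their reads cannot be told apart.

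NES (ENSG00000132688), which encodes nestin, a large filament protein that assembles together with vimentin in progenitor cells, measured 52.3, 29.6 and 42 CPM in the Apatinib group, against 49.1, 47.3 and 57.4 CPM in the control group. The groups overlapped, with the lowest value in Apatinib replicate 2. The log2(FoldChange) was -0.31 ± 0.185 (SE), and NES was the only 1 of the 7 genes above the filter with a negative value. Without Apatinib replicate 2 it was -0.12 and without Apatinib replicate 1 it was -0.51.

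**Figure D2:**
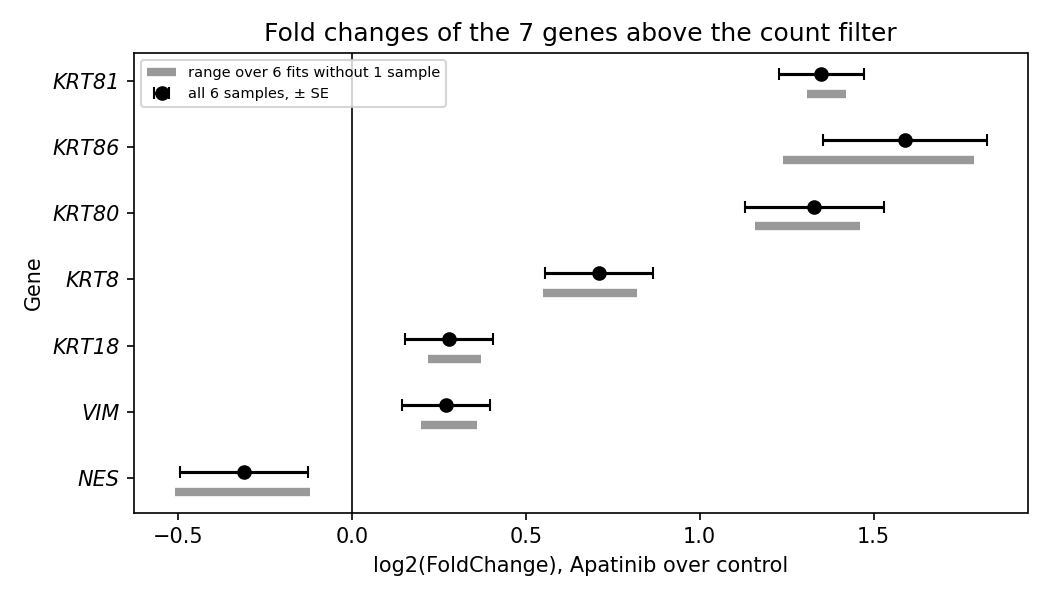
log2(FoldChange) of Apatinib over control for the 7 genes above the count filter, as points with the SE, and as grey bars the range over the 6 fits that each leave out 1 sample. KRT81 has a narrow range from 1.31 to 1.42, whereas that of KRT86 runs from 1.24 to 1.79, and that of NES stays below 0.

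Levels were compared between genes in FPKM, which are scaled to length, and the order depends in part on that scale. VIM was the most abundant of the 9 genes, with a mean of 936 ± 57.3 FPKM in the control group and 1133 ± 134 FPKM in the Apatinib group (SD, n = 3 each). KRT18 followed with 142 ± 15.5 and 171 ± 19.7 FPKM. KRT8 was next, with 22.5 ± 2.31 FPKM in the control group and 38.1 ± 2.85 FPKM in the Apatinib group. In the control group the order went on with KRT81 at 11 ± 0.648, NES at 6.33 ± 0.553 and KRT86 at 4.44 ± 0.376 FPKM, none of which overlapped its neighbour. In the Apatinib group KRT86, at 13.7 ± 5.69 FPKM, stood above NES, at 5.09 ± 1.17 FPKM. KRT80, KRT7 and KRT19 had means under 2 FPKM in both groups. KRT7 was at 0.417 ± 0.29 FPKM in the control group and 0.867 ± 0.371 FPKM in the Apatinib group. KRT19 was at 0.391 ± 0.199 and 0.314 ± 0.3 FPKM, and the samples of these 2 genes overlapped in both groups.

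The FPKM and the counts do not stand in the same relation for each gene. The transcript length implied by a gene's counts and its FPKM was 0.3 of the GENCODE length for KRT18, 0.358 for KRT7, 0.407 for VIM and 0.875 for KRT8, but 1.16 for KRT86, 1.26 for KRT19, 1.29 for KRT81, 1.43 for KRT80 and 1.45 for NES. Against KRT8, KRT86, KRT81, KRT80 and NES, the levels of KRT18 and VIM are therefore higher in FPKM than in counts per kilobase. As CPM per kilobase of the GENCODE transcript, a scale added after seeing the data, the controls gave 381 ± 20.4 for VIM, 42.7 ± 2.85 for KRT18, 20 ± 2.04 for KRT8 and 15.1 ± 0.387 for KRT81 (SD, n = 3), the same order as in FPKM, but KRT8 and KRT81 stood nearer to KRT18 than in FPKM. The gaps between genes therefore depend on the scale. In the Apatinib group KRT81, at 38.7 ± 3.17, stood above KRT8, at 32.8 ± 6.28, on this scale, and the 2 genes overlapped.

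The type II chains were added up and set against the type I chains, since the 2 types pair in the filament. The type II keratins summed to 89.3, 95.1 and 79.2 FPKM in the Apatinib group, against 38.1, 38.4 and 41.1 FPKM in the control group. The type I keratins summed to 189, 196 and 158 FPKM in the Apatinib group, against 142, 141 and 170 FPKM in the control group. The groups were separate for type II and overlapped for type I. The ratio of type II to type I was 0.471, 0.485 and 0.5 in the treated samples and 0.268, 0.271 and 0.242 in the controls on the FPKM scale. Type I was in excess in every control on both scales. In the treated samples, which type was in excess depended on the scale. In FPKM type I was above type II in every sample, whereas in summed CPM, a scale added after seeing the data, the ratio was 1.56, 1.63 and 1.53 in the Apatinib group, against 0.873, 0.829 and 0.814 in the control group. On both scales the ratio was higher in every treated sample. KRT81 and KRT86 together made up 49.7%, 57.3% and 49.6% of the type II sum in FPKM in the Apatinib group, against 40.9%, 42.4% and 34.8% in the control group. These sums consist mainly of the selected genes and are a description.

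**Figure D3:**
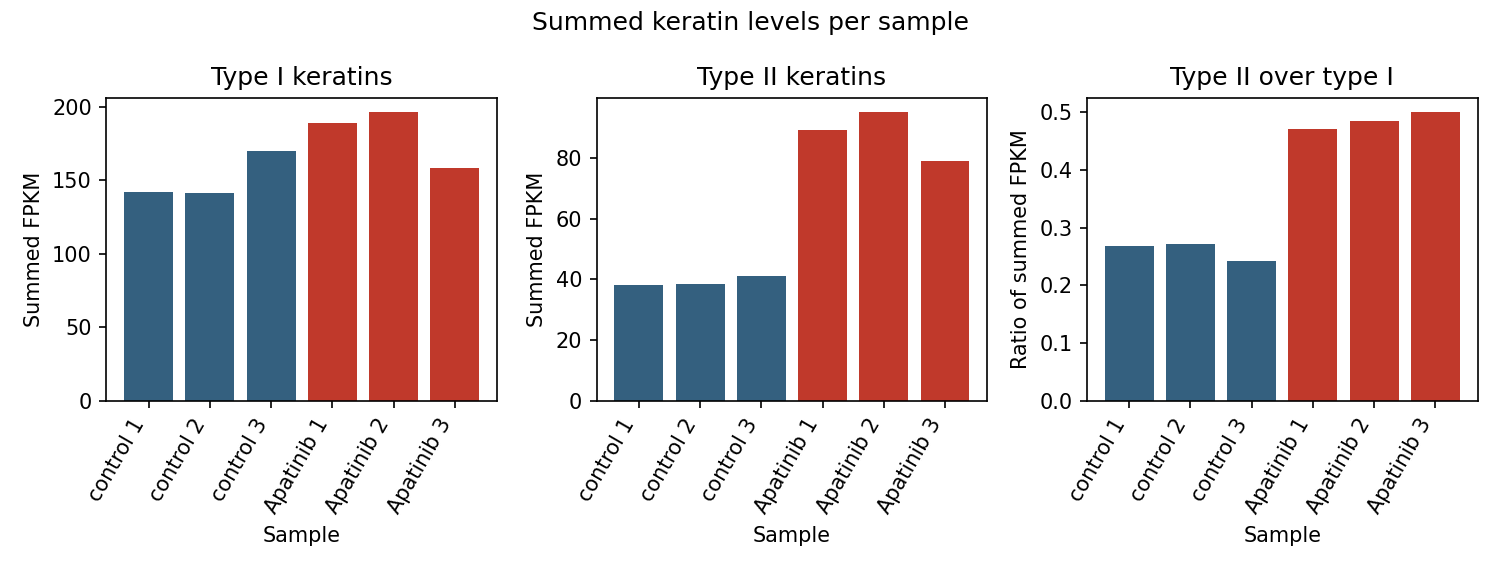
Summed FPKM of the type I keratins (left) and type II keratins (middle), and the ratio of the sums (right), in each sample, with controls in blue and Apatinib in red. The ratio lies between 0.242 and 0.271 in the controls and between 0.471 and 0.5 with Apatinib.

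Keratins were a minor share of the cytoplasmic filament transcripts in both groups, on the FPKM scale with the limits given above. They made up 17.7%, 22.2% and 16.9% of the summed FPKM of cytoplasmic intermediate filament genes in the Apatinib group, against 15.7%, 16.4% and 17% in the control group. The groups overlapped, because Apatinib replicate 3 lay under control replicate 3. VIM made up between 75.8% and 81.3% of that sum in the 6 samples.

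The type II keratin genes and KRT18 lie together on chromosome 12, so the place of most selected keratins follows from their choice by family. Nothing is read from it. In GENCODE release 29, 6 of the 9 genes lie in the keratin cluster of chromosome 12, which holds 27 protein-coding genes from KRT80 at one end to KRT18 at the other. KRT80, KRT7, KRT86 and KRT81 are the first 4 in this order, and KRT8 and KRT18 the last 2. The 21 genes between KRT81 and KRT8 were each under 1 CPM and under 1 FPKM in every sample, and 11 of them had 0 counts in all 6 samples. Of these 11, KRT85 nevertheless had 0.9 FPKM in Apatinib replicate 1. KRT83, a hair keratin next to KRT81, had 1, 3 and 7 counts in the Apatinib group, against 0, 0 and 1 counts in the control group. Its FPKM were 0.0412, 0.768 and 0.852 in the Apatinib group and 0 in each control, and 1.13% of the windows of the KRT81 transcript occurred in it. Of the remaining genes, KRT19 lies on chromosome 17, VIM on chromosome 10 and NES on chromosome 1.

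**Figure D4:**
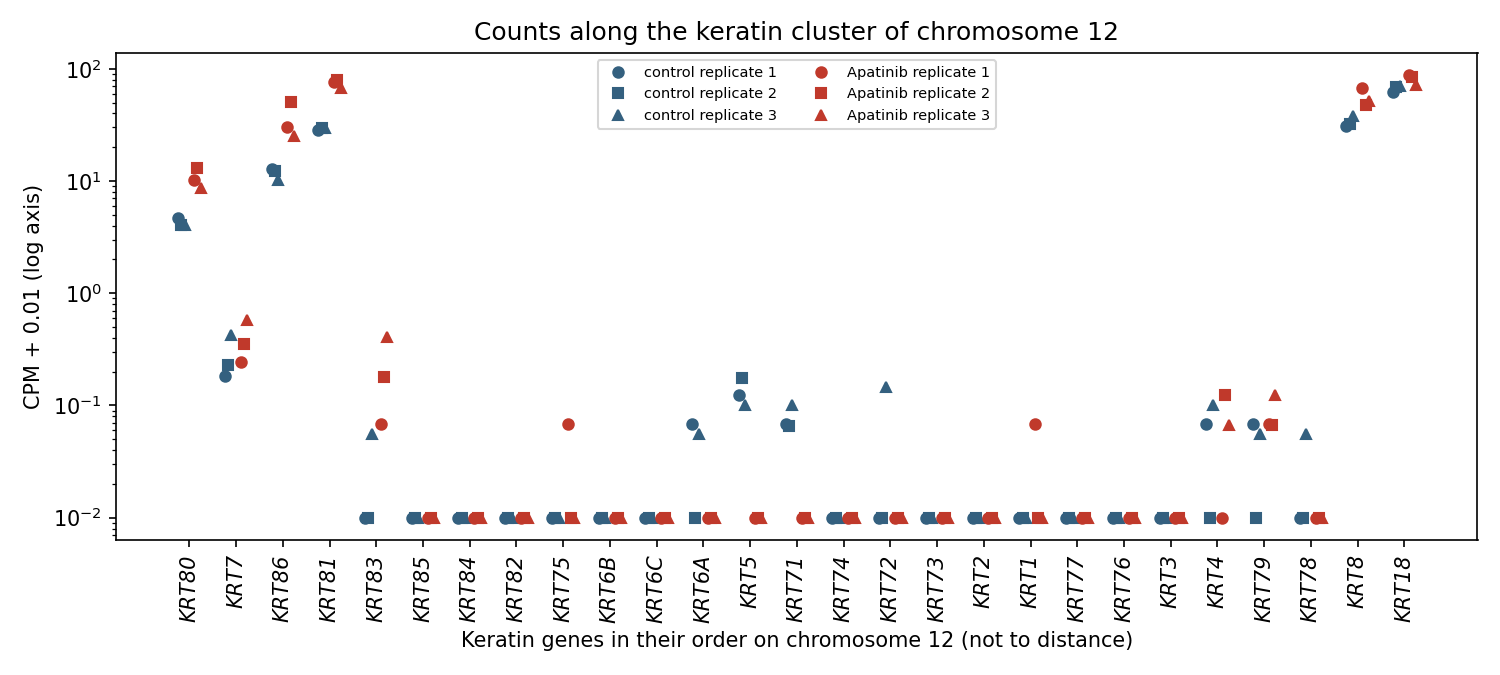
CPM + 0.01 (log axis) of the 27 keratin genes of the chromosome 12 cluster in their order, not to distance, in each sample, with controls in blue and Apatinib in red. Counts are confined to both ends of the cluster, apart from values under 1 CPM.

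Other intermediate filament genes were taken from lists of the type I keratins, the type II keratins and the remaining filament genes. Of 60 such genes in the table, 12 could be tested, 0 were higher and 2 were lower in the Apatinib group by the DEG rule. These DEGs were 16.7% of the 12, against 11.5% of all genes tested. Without the count filter KRT34 and KRT16 also met the rule, with higher values, so that 2 were higher and 2 were lower. The median log2(FoldChange) of the 12 tested genes was -0.10, against 0.00 over all genes tested. None of the 21 further type II keratins passed the count filter, and KRT83, with 12 counts over the 6 samples, had the most of them.

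KRT15, a type I keratin of basal epithelial cells, measured 2.97, 1.81 and 3.38 CPM in the Apatinib group, against 6.18, 4.62 and 5.95 CPM in the control group. It was lower in every treated sample, with a log2(FoldChange) of -1.04 ± 0.253 (SE, edgeR FDR = 0.0253). This call was lost without control replicate 1 (edgeR FDR = 0.106), control replicate 2 (edgeR FDR = 0.0613) or Apatinib replicate 1 (edgeR FDR = 0.0556). KRT10, the type I keratin of the upper epidermis, had a log2(FoldChange) of 0.31 ± 0.147 (edgeR FDR = 0.171), and the type I hair keratin KRT32 one of -0.54 ± 0.48 (edgeR FDR = 0.481). KRT13, a type I keratin of internal stratified epithelia, was not tested, with 28 counts in the control group and 9 in the Apatinib group.

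Type I partners of the hair type were scarce. KRT32 had the most counts of the type I hair keratins. It had 9, 7 and 14 counts in the Apatinib group, against 7, 14 and 28 in the control group, and the groups overlapped. KRT36, also a type I hair keratin, had 0, 0 and 2 counts in the Apatinib group, against 2, 5 and 3 in the control group. Its CPM was lower in every treated sample than in every control. KRT34, a type I hair keratin named after its values were seen, had 9, 22 and 19 counts in the Apatinib group, against 0, 5 and 1 counts in the control group. KRT16, a type I keratin of activated epidermis and named in the same way, had 10, 30 and 7 counts in the Apatinib group, against 0, 4 and 2 counts in the control group. In both genes every treated sample was above every control. They did not pass the count filter, and at these counts the size of the difference is poorly known.

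The lamins form the filament mesh under the nuclear membrane. LMNB1, which encodes lamin B1, measured 338, 174 and 340 CPM in the Apatinib group, against 461, 483 and 517 CPM in the control group. It was lower in every treated sample, most of all in Apatinib replicate 2, with a log2(FoldChange) of -0.78 ± 0.214 (SE, edgeR FDR = 0.0375). This call was lost without control replicate 1 (edgeR FDR = 0.101) or control replicate 2 (edgeR FDR = 0.113). LMNA, which encodes lamins A and C, had a log2(FoldChange) of 0.33 ± 0.142 (edgeR FDR = 0.145), and LMNB2 one of -0.40 ± 0.171 (edgeR FDR = 0.137). NEFH, the heavy neurofilament chain, was lower in every treated sample, but its log2(FoldChange) of -0.47 ± 0.128 (edgeR FDR = 0.0369) was under the fold limit.

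Proteins that anchor, fold or organise intermediate filaments were described by 4 further lists with 42 genes, of which 34 were tested, 5 were higher and 4 were lower in the Apatinib group. The median log2(FoldChange) was 0.05, against 0.00 over all genes tested. Together with a list of epithelial regulators, described last, the 5 lists held 56 genes, of which 40 were tested, 6 were higher and 4 were lower. The DEGs were 26.5% of the 34 genes tested from the 4 lists and 25% of the 40, against 11.5% of all genes tested. Nothing is read from these shares, since the lists were chosen with earlier results of these data known. The number of DEGs among these 56 was 1 without control replicate 1, 1 without control replicate 2, 4 without Apatinib replicate 1 and 6 without Apatinib replicate 2.

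Plakins tie filaments to junctions and to the rest of the cytoskeleton. PPL, which encodes periplakin, a plakin that binds keratins and vimentin, measured 24.1, 17.3 and 16.5 CPM in the Apatinib group, against 5.6, 7.2 and 5.27 CPM in the control group. All treated samples were above all controls, and the log2(FoldChange) was 1.68 ± 0.199 (SE, edgeR FDR = 0.00213). PPL was a DEG in each of the 6 fits without 1 sample. DST, which encodes dystonin, measured 290, 266 and 379 CPM in the Apatinib group, against 561, 662 and 352 CPM in the control group. Its groups overlapped, because control replicate 3 was low, and its log2(FoldChange) was -0.75 ± 0.212 (SE, edgeR FDR = 0.0402). The DST call was lost without Apatinib replicate 1 (edgeR FDR = 0.108), Apatinib replicate 2 (edgeR FDR = 0.0952), control replicate 1 (edgeR FDR = 0.141) or control replicate 2 (edgeR FDR = 0.188). PLEC, which encodes plectin and was the most abundant gene of the 5 lists in CPM, had a log2(FoldChange) of 0.35 ± 0.138 (edgeR FDR = 0.11), MACF1 one of -0.20 ± 0.113 (edgeR FDR = 0.254) and desmoplakin (DSP) one of 0.43 ± 0.295 (edgeR FDR = 0.357).

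Desmosomes are the junctions to which keratins attach. Of 13 genes, 6 were tested and 1 was a DEG. PKP2, which encodes the plaque protein plakophilin 2, had a log2(FoldChange) of 0.58 ± 0.169 (SE, edgeR FDR = 0.0449) and was higher in every treated sample than in every control in CPM, while in FPKM Apatinib replicate 1, at 2.49, lay under control replicate 1, at 2.7. Its call was kept in 1 of the 6 fits without 1 sample, that without Apatinib replicate 1 (edgeR FDR = 0.0315), and was lost in the others, with edgeR FDR values of 0.0908 without Apatinib replicate 2, 0.0834 without Apatinib replicate 3, 0.147 without control replicate 1, 0.179 without control replicate 2 and 0.056 without control replicate 3. It was also lost with the replicate block (edgeR FDR = 0.0538). The plaque protein genes JUP and PKP4 and the membrane protein gene PERP had log2(FoldChange) values of 0.23 ± 0.141, -0.21 ± 0.112 and 0.30 ± 0.109, with edgeR FDR values of 0.292, 0.236 and 0.0856.

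Genes of the nuclear envelope link the lamina to the cytoskeleton. All 13 were tested, 1 was higher and 3 were lower. SYNE2 and SYNE3 encode nesprins, which span the outer nuclear membrane. SYNE2 had a log2(FoldChange) of -0.82 ± 0.177 (SE, edgeR FDR = 0.0164) and SYNE3 one of 0.63 ± 0.142 (SE, edgeR FDR = 0.0197). The lamin B receptor gene LBR had one of -0.54 ± 0.154 (SE, edgeR FDR = 0.0428), and TMPO, which encodes lamina-associated polypeptide 2, one of -0.62 ± 0.125 (SE, edgeR FDR = 0.0134). In these 4 genes no treated sample overlapped a control. Without control replicate 1 or 2 all 4 calls were lost, with edgeR FDR values of 0.0847 and 0.0906 for SYNE2, 0.121 and 0.0989 for SYNE3, 0.166 and 0.146 for LBR, and 0.0823 and 0.0814 for TMPO. Without Apatinib replicate 1 the calls of SYNE2 (edgeR FDR = 0.0559), SYNE3 (edgeR FDR = 0.0554) and LBR (edgeR FDR = 0.0933) were lost, and without Apatinib replicate 2 that of LBR (edgeR FDR = 0.0727). SUN1, SUN2 and BANF1, the most abundant of the rest in the controls, had log2(FoldChange) values of 0.07 ± 0.112, 0.14 ± 0.137 and -0.17 ± 0.156, with edgeR FDR values of 0.72, 0.514 and 0.49.

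Of 9 keratin chaperones and partners, 2 were higher. FAM83H, whose product recruits casein kinase 1 to keratin filaments, had a log2(FoldChange) of 0.83 ± 0.2 (SE, edgeR FDR = 0.0237). CRYAB, a small heat shock protein gene, measured 2.15, 1.58 and 1.26 CPM in the Apatinib group, against 0.693, 0.715 and 0.55 CPM in the control group, with a log2(FoldChange) of 1.35 ± 0.343 (SE, edgeR FDR = 0.0294). Both genes were higher in every treated sample than in every control. The FAM83H call was lost without Apatinib replicate 1 (edgeR FDR = 0.0632), Apatinib replicate 2 (edgeR FDR = 0.0515), control replicate 1 (edgeR FDR = 0.106) or control replicate 2 (edgeR FDR = 0.0789). The CRYAB call was lost without Apatinib replicate 1 (edgeR FDR = 0.111) or control replicate 1 (edgeR FDR = 0.106), 2 (edgeR FDR = 0.105) or 3 (edgeR FDR = 0.0607). The 14-3-3 protein gene YWHAQ and the chaperone genes HSPB1 and DNAJB6 had log2(FoldChange) values of -0.03 ± 0.126, 0.03 ± 0.221 and -0.18 ± 0.114, with edgeR FDR values of 0.89, 0.951 and 0.311.

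**Figure D5:**
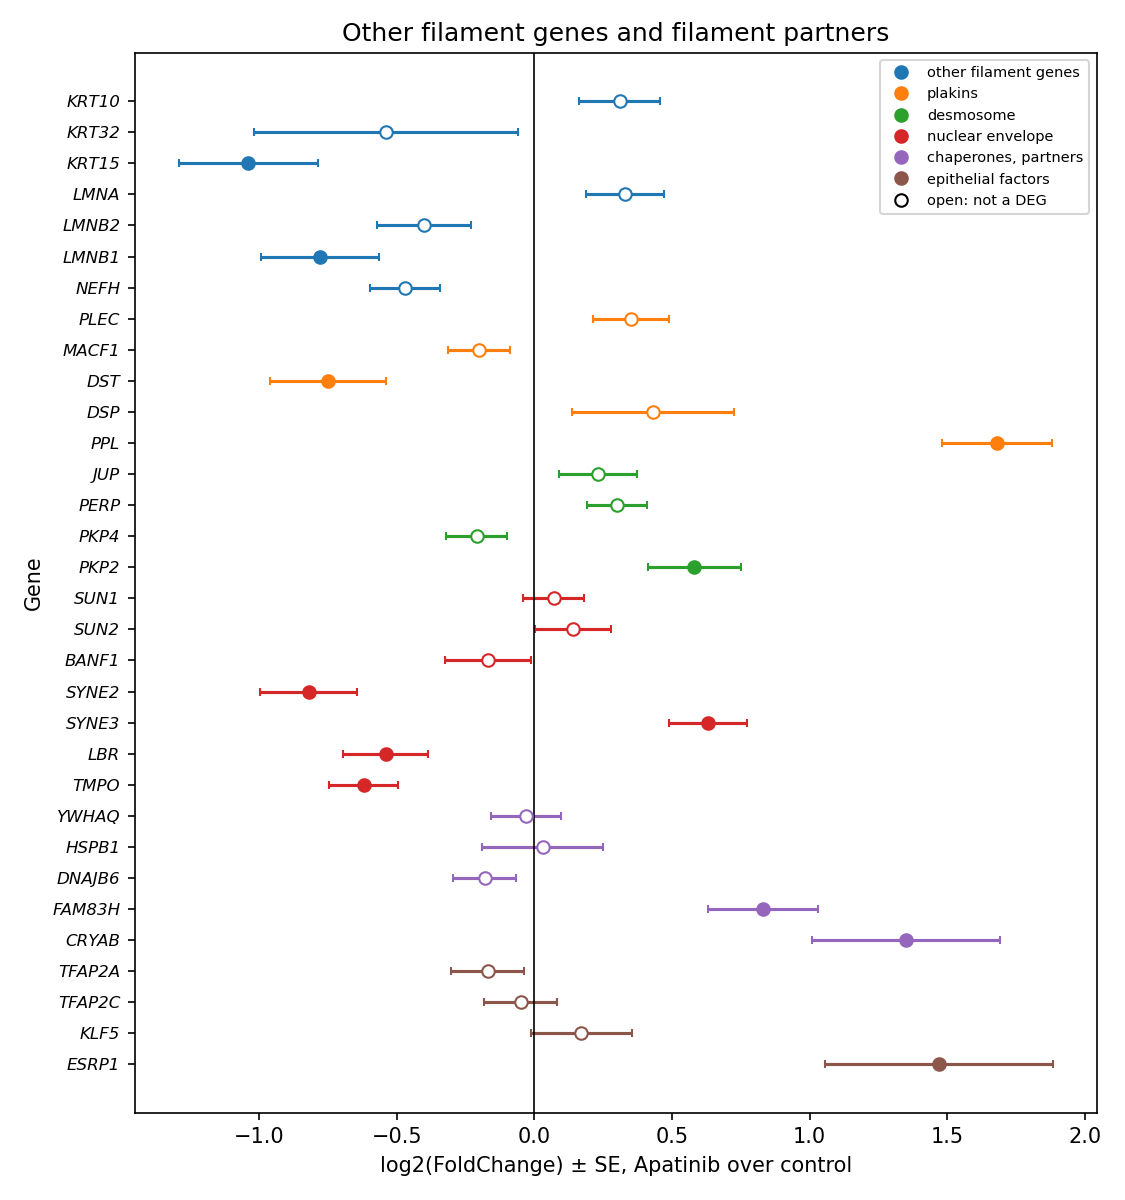
log2(FoldChange) of Apatinib over control with the SE for other filament genes and filament partners, coloured by list, with filled points for DEGs and open points for the rest. PPL has the highest value, 1.68, and KRT15 the lowest, -1.04.

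Epithelial identity was examined because keratins are epithelial proteins. Of 14 epithelial regulators, 6 were tested and 1 was a DEG, the splicing regulator ESRP1, at 1.86, 0.847 and 1.26 CPM in the Apatinib group, against 0.462, 0.605 and 0.366 CPM in the control group. Its groups did not overlap, and its log2(FoldChange) was 1.47 ± 0.414 (SE, edgeR FDR = 0.0407). This call was kept without Apatinib replicate 2 (edgeR FDR = 0.0311) and lost without Apatinib replicate 1 (edgeR FDR = 0.158), Apatinib replicate 3 (edgeR FDR = 0.069), control replicate 1 (edgeR FDR = 0.142), control replicate 2 (edgeR FDR = 0.108) or control replicate 3 (edgeR FDR = 0.0862). KLF4, a factor of epithelial differentiation named after its values were seen, measured 8.32, 39.7 and 9.62 CPM in the Apatinib group, against 8.31, 6.32 and 3.62 CPM in the control group. Apatinib replicate 2 stood far above the rest, and the log2(FoldChange) was 1.67 ± 0.525 (SE, edgeR FDR = 0.0573). It was 0.58 without Apatinib replicate 2 (edgeR FDR = 0.196), and KLF4 met the DEG rule without Apatinib replicate 1 (edgeR FDR = 0.039) or Apatinib replicate 3 (edgeR FDR = 0.0415), with the replicate block (edgeR FDR = 7.12e-07) and without the count filter (edgeR FDR = 3.27e-15). KLF4 missed the rule without control replicate 1, 2 or 3 (edgeR FDR = 0.104, 0.147 and 0.0803) and with controls 1 and 2 summed (edgeR FDR = 0.126). It also missed the rule by DESeq2 (FDR = 0.125) and by limma at pseudocounts of 1 (FDR = 0.18) and 0.1 (FDR = 0.162). The same held with RLE size factors and with a minimum of 10 counts per sample. The factors TFAP2A, TFAP2C and KLF5 had log2(FoldChange) values of -0.17 ± 0.132, -0.05 ± 0.133 and 0.17 ± 0.183, with edgeR FDR values of 0.41, 0.84 and 0.581.

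The 12 epithelial markers summed to 17.9, 12.5 and 14.3 CPM in the Apatinib group, against 11.1, 11.1 and 12 CPM in the control group. The groups did not overlap, and Apatinib replicate 1 was the highest. The mucin gene MUC1 was the most abundant, with a mean of 5.32 CPM. Of the 12, 5 were tested and 3 were higher by the DEG rule (60%, against 5.97% of all genes tested). These were ESRP1 and the tight junction genes CLDN3, with a log2(FoldChange) of 1.16 ± 0.324 (SE, edgeR FDR = 0.0396), and CLDN7, with one of 1.13 ± 0.281 (SE, edgeR FDR = 0.0271). The other tested markers, CLDN4 and MUC1, had values of -0.16 ± 0.244 (edgeR FDR = 0.7) and -0.08 ± 0.224 (edgeR FDR = 0.855), and their groups overlapped. The CLDN3 call was lost without Apatinib replicate 1 (edgeR FDR = 0.143), Apatinib replicate 3 (edgeR FDR = 0.0742), control replicate 1 (edgeR FDR = 0.15), control replicate 2 (edgeR FDR = 0.143) or control replicate 3 (edgeR FDR = 0.063), and by DESeq2 in place of edgeR (FDR = 0.0682). The CLDN7 call was lost without Apatinib replicate 1 (edgeR FDR = 0.0619), Apatinib replicate 2 (edgeR FDR = 0.0578), control replicate 1 (edgeR FDR = 0.0629) or control replicate 2 (edgeR FDR = 0.128). The defining markers of epithelial cells were at or near 0, with 5 counts of CDH1 and 17 of EPCAM over the 6 samples. The part of these markers in the keratin values was not tested.

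Markers of other cell types were low in counts. The 7 leukocyte markers summed to 4.13, 4.18 and 2.98 CPM in the Apatinib group, against 4.73, 5.72 and 5.54 CPM in the control group, nearly all of it CD14, with 0 counts of PTPRC in the 6 samples. The FPKM differed from this for CD68, a lysosomal protein gene known from macrophages, which had 1 count over the 6 samples but measured 11.8, 8.56 and 6.78 FPKM in the Apatinib group, against 3.3, 1.79 and 2.85 FPKM in the control group. On that scale it was the most abundant leukocyte marker and higher in every treated sample, whereas CD14 was at most 1.9 FPKM and PTPRC was listed at 0. The part of these markers in the keratin values was not tested. Of the 7, only CD14 passed the count filter, and it was not a DEG (edgeR FDR = 0.156). The 5 endothelial markers analysed here summed to between 14.6 and 17.6 CPM in the 6 samples, most of it from the angiopoietin receptor gene TEK. Of these, 3 were tested, the clotting protein gene VWF was higher (edgeR FDR = 0.0386) and the cadherin gene CDH5 was lower (edgeR FDR = 0.0242), both at levels of at most 3.03 CPM. The VWF call was lost without Apatinib replicate 1 (edgeR FDR = 0.114), Apatinib replicate 3 (edgeR FDR = 0.1), control replicate 1 (edgeR FDR = 0.146) or control replicate 2 (edgeR FDR = 0.142). The CDH5 call was lost without Apatinib replicate 1 (edgeR FDR = 0.0632), control replicate 1 (edgeR FDR = 0.102), control replicate 2 (edgeR FDR = 0.0618) or control replicate 3 (edgeR FDR = 0.0527).

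Calls of the 19 DEGs named above outside the selected genes also depended on other settings. With controls 1 and 2 summed, 2 of the 19 kept their call, PPL (edgeR FDR = 0.0108) and COL3A1 (edgeR FDR = 0.0423), and the other 17 lost it. By limma on the FPKM, at either pseudocount, 16 had a test and 5 kept their call, namely PPL, SYNE3, TMPO, CLDN7 and COL6A3. The 11 that lost it were KRT15, LMNB1, DST, PKP2, SYNE2, LBR, FAM83H, CRYAB, CLDN3, COL3A1 and LPL, and ESRP1, CDH5 and VWF were under the FPKM limit. DESeq2 gave no FDR for CRYAB and ESRP1.

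The genes whose profile over the 6 samples was most like that of KRT81 were found from log2 CPM centred on the control mean. They were PHGDH, the first enzyme of serine synthesis, at a root mean square difference of 0.0712, BASP1, a membrane-bound signalling protein gene, at 0.0781, AHNAK2 at 0.11, SYT12 at 0.116 and the pseudogene ANO7P1 at 0.135. PHGDH measured 232, 227 and 188 CPM in the Apatinib group, against 90.4, 83.6 and 84.4 CPM in the control group. Like KRT81, it was lowest among the treated samples in Apatinib replicate 3. None of the 5 is an intermediate filament gene, and KRT86 and KRT80 were not among them.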

How the data were processed

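The authors deposited a table of counts per gene, whole numbers without normalization, and FPKM values for each sample. STAR 2.7.1a, CASAVA and hg19 are named in the submitters' processing notes. The counting program and the use of strand are not given in the sources used here. The FPKM values deposited by the authors were not derived from the same counts, and 1 extra column among them was not used.

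The count test was edgeR 4.0.16 under R 4.3.3 (filterByExpr, TMM scaling, quasi-likelihood F test, Benjamini-Hochberg adjustment over 16290 genes). CPM used the TMM factors, and log2 CPM a prior count of 2. Alternatives used DESeq2 1.42.0, RLE size factors, no filter other than a total of 1 count, a minimum of 10 counts per sample, a replicate block, samples left out in turn, controls 1 and 2 summed, and an FDR limit alone. FPKM above a mean of 0.5 were tested by limma 3.58.1 as log2 values with a pseudocount of 1 or 0.1. The edgeR step was tested on simulated data. Chi-square values between samples were taken over genes that reached 50 counts between them. Transcripts, exon overlap and gene order were taken from GENCODE release 29, matched by Ensembl gene identifier, and none of its genome coordinates is printed, since the submitters' notes name another build.

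The genes and lists were chosen with earlier results of these data known. Named genes were the 9 selected genes, every listed DEG, the 3 other genes of each list with the highest control CPM where they had enough counts, the most abundant markers and the 5 genes most like KRT81. KLF4, CD68, KRT34 and KRT16 were named after their values were seen.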

Additional observations from a re-analysis of the deposited data

How the results depend on the processing

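The number of DEGs (1866) ranged from 275 to 2594 when 1 sample was left out, and was 292 with controls 1 and 2 summed, 796 with limma on log2(FPKM + 1) and 810 with limma on log2(FPKM + 0.1). The other intermediate filament genes (2 DEGs) gave 0 to 3 when 1 sample was left out, 4 without a count filter (KRT34 and KRT16 higher, KRT15 and LMNB1 lower), 1 with controls 1 and 2 summed, and 0 with limma at either pseudocount, 1 or 0.1. The filament partners with the epithelial regulators (10 DEGs) gave 1 to 9 when 1 sample was left out, 1 with controls 1 and 2 summed, and 3 with limma at either pseudocount. The number of DEGs rose without control replicate 3 or Apatinib replicate 3 and fell most without control replicate 1 or 2, and the cause of these shifts was not tested.

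The log2(FoldChange) of KRT81 (1.35) ranged from 1.31 to 1.42 when 1 sample was left out, and was 1.48 and 1.55 with limma at pseudocounts of 1 and 0.1. Of 100 such values for the 7 tested genes under an alternative, 100 had the sign reported and 97 moved by less than 1 SD, from which nothing is read, since the genes were selected on this contrast. The other 3 were the KRT81 values by limma and that of KRT80, which went from 1.33 to 0.72 by limma on log2(FPKM + 1). This SD was the larger of the 2 group SDs of the same gene in log2 CPM, so larger shifts pass for a gene with a wider spread. This SD is not the SE printed with each gene, and some of the 97 values moved by more than that SE. The KRT86 value without Apatinib replicate 2 was among them, at 1.24 against 1.59 ± 0.236 (SE).

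Same-numbered samples of the 2 groups did not deviate together (correlations of -0.259, 0.0808 and -0.22 for replicates 1 to 3). With 3 replicates per group these values cannot decide whether the numbers pair the samples, which is not known here. With the replicate block the DEGs numbered 2215, with 4 selected genes, 2 other filament genes and 10 partners or epithelial regulators among them, without PKP2 and with KLF4 in its place.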
